A study of Mus musculus with 12 samples.

Results

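The mitochondrial respiratory chain and ATP synthase are built from many small nuclear-encoded subunits, and 81 of their genes were measured here among 18193 mouse genes. They were chosen by symbol alone: every gene whose probe set carried a single symbol beginning with Ndufa, Ndufb, Ndufc, Ndufs or Ndufv and a digit, with Sdha to Sdhd, Uqcr, Cox4 to Cox8, or Atp5. By complex these were 33 genes of complex I, 4 of complex II, 8 of complex III, 19 of complex IV and 17 of complex V, and 79 of the 81 were bright enough to be tested. Ndufa4 and Ndufa4l2 were counted with complex IV. Across 12 mouse tumors given radiation, a TGF-beta-neutralizing antibody, both or neither, 1 subunit gene passed the test: Ndufc2, an accessory subunit of complex I, was 1.28-fold higher after radiation, in a comparison that called 2.39% of all genes tested. The other 78 tested subunits passed it in no comparison, and for 76 of the 79 the 95% interval of each of the 4 differences between groups with a shared antibody or radiation state lay within 0.5 log2 units of 0. The 3 exceptions were the striated muscle isoforms Cox6a2, Cox7a1 and Cox8b of complex IV, which varied most from tumor to tumor. Ndufc2 lay within that bound too, so the bound does not exclude changes of its size in other subunits.

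Lewis lung carcinoma (LLC) cells, a mouse lung cancer line of C57BL/6 origin, were grown beneath the skin (right flank) of C57BL/6 mice, all female and 6 to 8 weeks old, whose own vessels, stroma and immune cells entered the tumors. Treatment groups were formed when tumors measured 60 to 80 mm3 and tumor collection was on day 19, and RNA from each whole tumor was put on its own Affymetrix array. Control tumors received 13C4, the isotype control antibody, and 1D11 tumors received 1D11, an antibody that neutralizes TGF-beta and that the labels call a TGFB1 inhibitor. Radiation tumors received 13C4 with 5 fractions of 6 Gy, and 1D11_radiation tumors received 1D11 with the same fractions. All 12 tumors therefore carried an antibody and came from 1 cell line in 1 strain and sex, with 3 tumors in each of the 4 groups. The sample descriptions give 2 Gy in place of 6 Gy, and no source used here settles which is right. The labels do not say that the tumors of a group came from separate mice, so each p-value measures only the spread between these samples.

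Complex I (NADH dehydrogenase) and complex II (succinate dehydrogenase) pass electrons from NADH and succinate to ubiquinone, complex III (cytochrome bc1) passes them on to cytochrome c, and complex IV (cytochrome c oxidase) hands them to oxygen. Complexes I, III and IV pump protons across the inner mitochondrial membrane, and complex V (ATP synthase) uses the gradient to make ATP. Several complex IV subunits exist as a ubiquitous isoform and another that is restricted to striated muscle, testis or low-oxygen tissue, and many tumor cells combine an active respiratory chain with strong glycolysis.

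Values are log2 of the deposited intensity, and the probe set with the highest mean stood for each gene. Array medians lay between 62.3 and 66.1 intensity units, and sorted log2 values differed between arrays by up to 0.129. No further scaling was applied, and the median changes of the subunits given below are smaller than that. The epithelial markers Krt8 and Krt18 had mean levels of 12.16 and 12.1, and Krt19 and Epcam were tested as well, whereas Cdh1, Cldn4 and Cldn7 lay below the brightness filter. A score of 17 skeletal muscle genes set 2 tumors apart from the others, control 1 at 1.17 and radiation 3 at 1.96, against -1.29 to 0.62 elsewhere. Keratinocyte genes were high in 1D11 1 and 1D11 3, with scores of 0.90 and 2.13 against -0.40 to -0.14 in the other tumors. Each score is the mean of its genes' log2 values after centring each gene over the 12 tumors.

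The promoters of 66 of the 81 genes, 300 bases around the start site, were matched in RefSeq on build GRCm38.p6, and 4 are printed here. Ndufc2 is shown because it was the 1 subunit called, Cox6a1 because it is the ubiquitous isoform with an NRF1-type and an ETS match, and Cox7a1 and Cox8b as muscle isoforms. They lie at chr7:97399753-97400052 (Ndufc2, plus strand), chr5:115348909-115349208 (Cox6a1, minus strand), chr7:30183921-30184220 (Cox7a1, plus strand) and chr7:140900397-140900696 (Cox8b, minus strand). Each is written 5′ to 3′ on the gene's strand, and capitals mark a match on either strand to 1 of the 6 short motifs searched.
Ndufc2: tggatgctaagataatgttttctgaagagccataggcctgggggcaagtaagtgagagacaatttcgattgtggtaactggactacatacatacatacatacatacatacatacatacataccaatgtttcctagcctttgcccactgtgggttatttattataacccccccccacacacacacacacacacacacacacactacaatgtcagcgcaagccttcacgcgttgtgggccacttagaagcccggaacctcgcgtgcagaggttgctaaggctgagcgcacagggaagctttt
Cox6a1: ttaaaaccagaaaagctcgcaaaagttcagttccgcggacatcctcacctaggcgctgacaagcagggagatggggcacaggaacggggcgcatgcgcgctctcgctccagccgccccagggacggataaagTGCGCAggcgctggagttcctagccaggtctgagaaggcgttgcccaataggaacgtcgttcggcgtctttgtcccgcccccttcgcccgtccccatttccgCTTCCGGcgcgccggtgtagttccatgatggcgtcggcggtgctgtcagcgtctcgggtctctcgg
Cox7a1: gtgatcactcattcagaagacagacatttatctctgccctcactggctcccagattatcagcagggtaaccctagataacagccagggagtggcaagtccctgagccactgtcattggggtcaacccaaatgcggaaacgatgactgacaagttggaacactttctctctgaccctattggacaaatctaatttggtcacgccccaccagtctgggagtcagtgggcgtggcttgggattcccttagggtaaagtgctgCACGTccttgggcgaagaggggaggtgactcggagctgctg
Cox8b: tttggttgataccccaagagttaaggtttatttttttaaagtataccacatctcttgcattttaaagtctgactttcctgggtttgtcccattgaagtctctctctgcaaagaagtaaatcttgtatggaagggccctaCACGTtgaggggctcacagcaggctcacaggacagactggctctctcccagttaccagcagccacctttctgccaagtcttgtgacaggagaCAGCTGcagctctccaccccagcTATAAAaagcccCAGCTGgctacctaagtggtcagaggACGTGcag
For NRF1 only a short part of its motif, TGCGCA, was searched, and the full motif was not. The motif of ETS factors was searched as CCGGAAG, the hypoxia response core as ACGTG and the E-box as CAGCTG. The YY1 motif was searched as AAGATGG and the promoter box of that name as TATAAA, and none of the 6 contains another. In the sequences above, the capitals in Cox6a1 mark the searched part of the NRF1 motif and the reverse complement of the ETS motif. In Cox7a1 they mark the reverse complement of the hypoxia response core, and in Cox8b that core in both orientations, the E-box and the last motif. No match to the 6 motifs was found in the Ndufc2 window.

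TGCGCA was in 17 of the 66 subunit promoters (25.8%), against 8.06% of all 27025 promoters in the table and 13.9% of the 10213 promoters of tested genes. CCGGAAG was in 16 (24.2%, against 9.12% and 17.6%), and AAGATGG in 9 (13.6%, against 6.48% and 7.21%). ACGTG was in 18 (27.3%, against 19.7% and 25.4%), CAGCTG in 6 (9.09%, against 16.1% and 15.2%), and TATAAA in 8 (12.1%, against 14.2% and 7.6%). Cox6a1, Atp5l, Ndufb6 and Sdhd held both TGCGCA and CCGGAAG. The median GC content of the subunit promoters was 58.5%, against 52.7% of all promoters and 60.7% of those of tested genes. These shares describe the letters in the windows and no more.

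In radiation under the control antibody limma called 1 of the 79 subunits, Ndufc2, at an adjusted p under 0.05, and 2.39% of the 12735 genes tested were called in the same comparison. Before adjustment 5 subunits were higher and 1 was lower at a p under 0.05, as were 10% and 8.74% of all genes. The median log2 change of the subunits was 0.01, with 43 of 79 higher, beside a median of 0.00 over all genes. All 3 radiation tumors lay above, or all below, the 3 control tumors for 12 subunits (15.2%, against 20.6% of all genes), 9 of them higher and 3 lower (10.6% and 10% of all genes). The median was 0.07, with 63 of 79 higher, without control 1, and -0.03, with 33 of 79 higher, without control 3.

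Radiation under 1D11 called no subunit with limma, while 0.0785% of all genes were called, and 2 subunits were higher and 6 lower at an unadjusted p under 0.05 (5.21% and 10.3% of all genes). The median change was -0.05, with 24 of 79 subunits higher (30.4%), against a median of -0.03 and 42.4% over all genes. The 1D11_radiation and 1D11 tumors did not overlap for 31 subunits (39.2%, against 26.1% of all genes). In 25 of these the irradiated tumors were lower and in 6 they were higher, as in 16.5% and 9.59% of all genes. The changes were small: among the 76 subunits other than the muscle isoforms they ran from -0.24 to 0.31. Markers of other cells moved between the same tumors. All 5 tested keratinocyte genes were lower in the 1D11_radiation tumors, with a median of -1.13, and their mean scores were 0.90, -0.36 and 2.13 in the 1D11 tumors against -0.34, -0.31 and -0.40. All 4 tested adipocyte genes were lower too, with a median of -0.70 and mean scores of 0.66, -0.04 and 0.64 against -0.79, 0.03 and -0.54. None of the 9 was called, Krt1, Flg, Trp63, Dsg1a and Dsc3 of the first list and Cidec, Lep and Pparg of the second lay below the filter, and their part in the subunit values was not tested. Other lists moved in this comparison as well. Tested muscle genes were lower for 16 of 17 (median -0.74) and macrophage genes for 8 of 9 (median -0.24). Pericyte genes were lower for 5 of 7 (median -0.39), and tested epithelial markers were higher for 3 of 4 (median 0.27). Hypoxia and glycolysis genes were higher for 21 of 22 (median 0.44). None of these was called, and their part was not tested either. In bulk tumor RNA, fewer cells of a type and less RNA per cell cannot be told apart.

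1D11 without radiation also called no subunit with limma, 0.0157% of all genes being called. Ndufs4, Ndufb7, Ndufa2, Uqcr11 and Atp5d were higher at an unadjusted p under 0.05, and none was lower (9.01% and 5.12% of all genes). The median was 0.05, with 59 of 79 higher (74.7%), against 0.04 and 62.1% over all genes. The groups did not overlap for 14 subunits (17.7%, against 19% of all genes), 10 higher and 4 lower (12.1% and 6.95% of all genes). This comparison shares its control tumors with that of radiation against control, and its median was 0.10 without control 1 and 0.01 without control 3, with 69 and 40 of 79 subunits higher. Markers of other cells differed here too. All 5 tested keratinocyte genes (median 1.08), all 9 macrophage genes (median 0.34) and 15 of 17 muscle genes (median 0.23) were higher with 1D11. All 7 pericyte genes (median -0.39), 8 of 10 endothelial genes (median -0.27) and 20 of 22 hypoxia and glycolysis genes (median -0.24) were lower. None of these was called, and their part in the subunit values was not tested.

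1D11 in irradiated tumors gave no call among the subunits or among all genes (0%), and Ndufa4l2, which was lower, was the 1 subunit at an unadjusted p under 0.05 in limma, beside 2.66% of all genes lower and 2.74% higher. The median was -0.02, with 30 of 79 higher, beside 0.00 over all genes, and the groups did not overlap for 8 subunits (10.1%, against 13.4%), 2 higher and 6 lower (7.3% and 6.12% of all genes). The interaction, the radiation effect under 1D11 minus that under 13C4, called no subunit with limma and no gene (0%). Its median was -0.07 over the subunits, with 19 of 79 above 0 (24.1%), against -0.03 and 42.2% over all genes. Uqcr11 and Ndufs7 had an unadjusted p under 0.05, both below 0, as had 5.1% of all genes below 0 and 2.38% above it. Without control 1 the median was -0.10 with 11 above 0, and without control 3 it was -0.05 with 30 above 0.

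**Figure D1:**
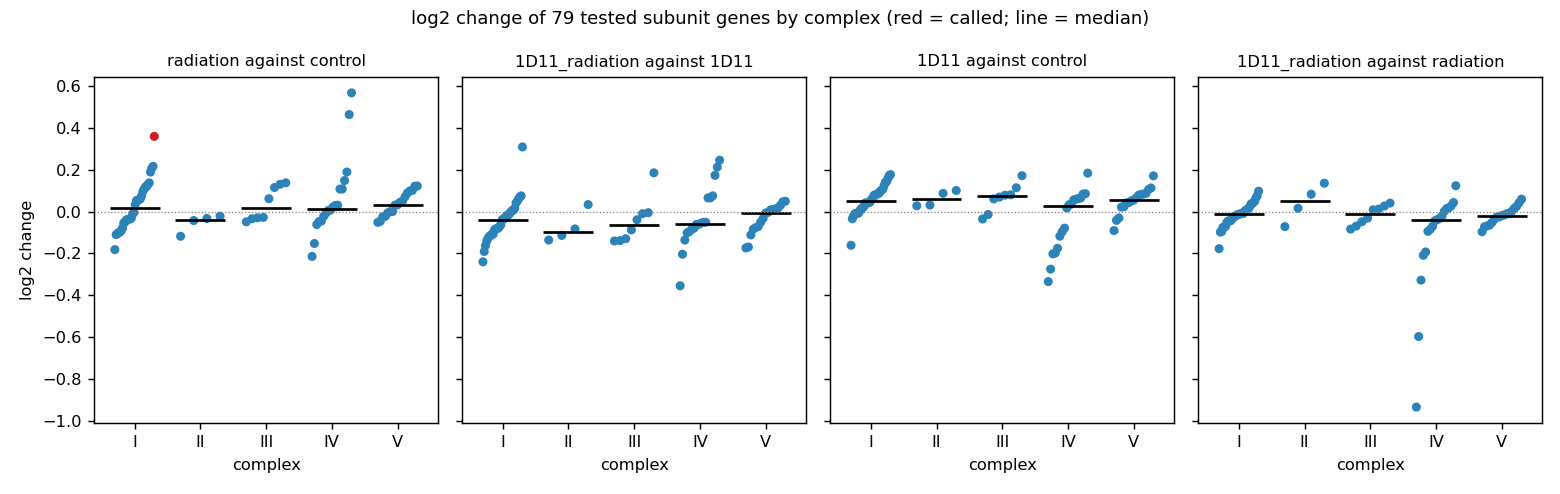
Log2 change of each of the 79 tested subunit genes (1 point per gene, y axis) by complex (x axis) in the 4 comparisons between groups of 3 tumors, with a line at the median of each complex and the called gene in red. Ndufc2 at 0.36 is the 1 called point; the points far from the rest in complex IV are the muscle isoforms, from -0.93 to 0.57.

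Setting all 6 irradiated against all 6 unirradiated tumors, Ndufc2 was again the 1 subunit called by limma, while 7.26% of all genes were called. At an unadjusted p under 0.05, 6 subunits were higher and 5 were lower (10.8% and 13.6% of all genes). The tumors did not overlap for 2 subunits (2.53%, against 4.36% of all genes), Ndufc2 above and Ndufs3 below (1.95% and 2.41% of all genes). Setting the 6 tumors with 1D11 against the 6 with 13C4, no subunit was called by limma and 0.00785% of all genes were. There 2 subunits were higher and 2 lower at an unadjusted p under 0.05 (7.77% and 4.72% of all genes). Ndufa4l2, which was lower, was the 1 subunit without overlap (1.27%), against 0.652% of all genes in either direction, 0.298% lower and 0.353% higher.

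Complex I was represented by 6 core subunits, from the arm that oxidizes NADH and reduces ubiquinone, and 27 accessory subunits. In radiation against control, 16 of the 32 tested members were higher and 16 lower, with a median of 0.02. In 1D11_radiation against 1D11, 9 were higher and 23 lower, with a median of -0.04. In 1D11 against control, 25 were higher and 7 lower, with a median of 0.05.

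Ndufc2 sits in the membrane arm of complex I and is needed for its assembly. Its log2 intensity was 12.12, 12.07 and 12.11 in the control tumors, 12.05, 12.09 and 12.10 in the 1D11 tumors, 12.53, 12.49 and 12.37 in the radiation tumors and 12.36, 12.44 and 12.37 in the 1D11_radiation tumors. Every irradiated tumor lay above every unirradiated one, with 12.36 as the lowest irradiated value and 12.12 as the highest unirradiated one. Under 13C4 the radiation effect was 0.36 ± 0.06 (standard error, n = 3 tumors per group; adjusted p = 0.0188), or 1.28-fold. Under 1D11 it was 0.31 ± 0.06, with an adjusted p of 0.063 that missed the threshold and of 0.0402 when control 1 was left out of the model. The difference between these effects was -0.05 ± 0.09 (adjusted p = 0.929), with a 95% interval of -0.24 to 0.14. Over all 12 tumors Ndufc2 rose by 0.33 ± 0.04 (adjusted p = 0.00313), or 1.26-fold.

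The call against control was lost without radiation 1 (adjusted p = 0.0836), without radiation 2 (0.0734) and with only those 2 groups in the model (0.135). The call over 6 against 6 tumors kept an adjusted p between 0.00204 and 0.0119 whichever tumor was left out. Of the 4 probe sets of Ndufc2, 2 carry a suffix for possible matches to more than 1 transcript, the brightest, used here, and the next brightest, which gave changes of 0.38 under 13C4 and 0.21 under 1D11. The third brightest, without that suffix, gave 0.34 and 0.25, and the dimmest gave 0.08 and -0.05. Without control 1 and radiation 3, the tumors highest in muscle genes, the change under 13C4 was 0.42 (adjusted p = 0.0130).

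**Figure D2:**
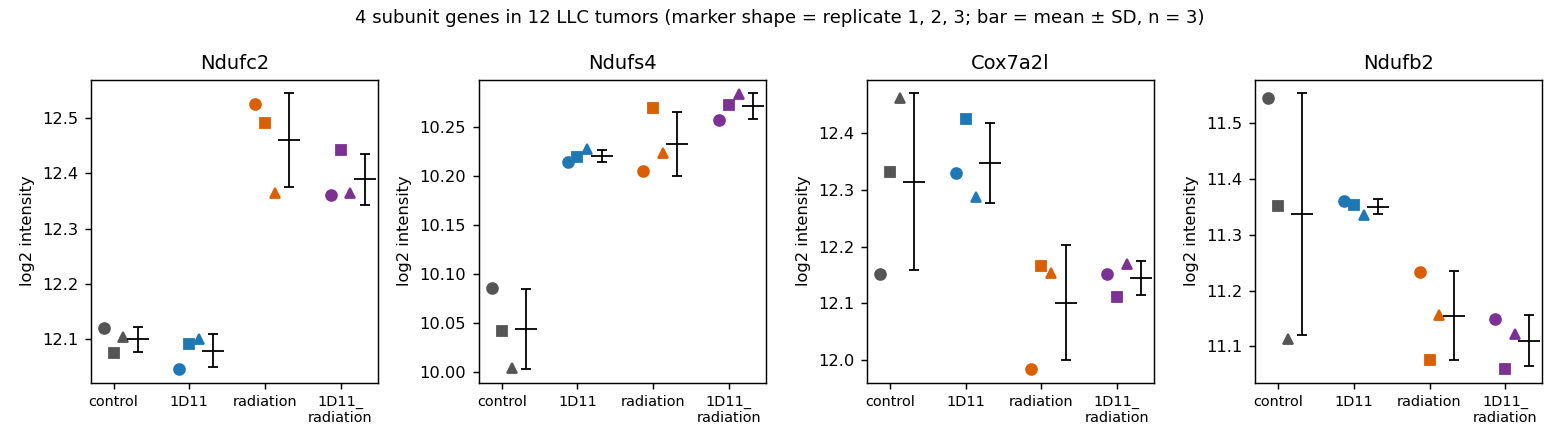
Log2 intensity (y axis) of Ndufc2, Ndufs4, Cox7a2l and Ndufb2 in each of the 12 tumors by group (x axis), with marker shape for the replicate number and a bar for the mean ± SD (n = 3). For Ndufc2 the 6 irradiated tumors (12.36 to 12.53) lie above the 6 unirradiated ones (12.05 to 12.12), and for Ndufs4 the 3 control tumors (10.004 to 10.09) lie below the other tumors (10.21 to 10.28); the y axes do not start at 0.

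Ndufs4, an accessory subunit of the peripheral arm at the base of the NADH-oxidizing module, was lowest in the controls. It measured 10.09, 10.04 and 10.004 in the control tumors, 10.21, 10.22 and 10.23 in the 1D11 tumors, 10.21, 10.27 and 10.22 in the radiation tumors and 10.26, 10.27 and 10.28 in the 1D11_radiation tumors. All 3 controls lay below the 9 other tumors. Its change was 0.19 ± 0.05 for radiation against control (adjusted p = 0.0835) and 0.18 ± 0.05 for 1D11 against control (adjusted p = 0.209), and neither passed. These estimates share the same 3 controls, and 1D11_radiation against 1D11 gave 0.05 ± 0.05. The dimmer probe sets of Ndufs4, in falling order of level, gave 0.33, 0.10 and 0.06 for radiation against control. They gave 0.20, 0.22 and -0.02 for 1D11 against control, and 0.11, -0.21 and 0.03 for 1D11_radiation against 1D11.

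Ndufb2, a small membrane-arm accessory subunit, measured 11.54, 11.35 and 11.11 in the control tumors, 11.36, 11.35 and 11.34 in the 1D11 tumors, 11.23, 11.07 and 11.16 in the radiation tumors and 11.15, 11.06 and 11.12 in the 1D11_radiation tumors. All 6 irradiated tumors lay below the 3 1D11 tumors, and control 3 lay among the irradiated ones. Its difference between irradiated and unirradiated tumors was -0.21 ± 0.07 (adjusted p = 0.0811), and it passed without control 3, at -0.27 (adjusted p = 0.0197). The membrane-arm accessory subunit Ndufb7 measured 11.48, 11.44 and 11.31 in the control tumors, 11.61, 11.59 and 11.56 in the 1D11 tumors, 11.61, 11.54 and 11.47 in the radiation tumors and 11.52, 11.65 and 11.61 in the 1D11_radiation tumors. It was higher in every 1D11 tumor than in the controls, at 0.17 ± 0.07 (adjusted p = 0.303).

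Ndufb6, another membrane-arm accessory subunit, measured 12.15, 11.80 and 11.80 in the control tumors, 11.73, 11.75 and 11.80 in the 1D11 tumors, 11.92, 11.83 and 11.71 in the radiation tumors and 11.60, 11.69 and 11.64 in the 1D11_radiation tumors. With this probe set control 1 stood highest, and the 3 1D11_radiation tumors were the lowest of all 12. The change with 1D11 in irradiated tumors was -0.18 ± 0.10 (adjusted p = 0.84). The other probe set of Ndufb6, at a mean of 11.37, gave -0.03 there. It gave -0.02 for 1D11 against control and -0.01 for 1D11_radiation against 1D11, where the set used gave -0.16 and -0.11. Ndufa6, an accessory subunit of the peripheral arm, measured 11.26, 11.11 and 11.07 in the control tumors, 11.08, 11.18 and 11.21 in the 1D11 tumors, 11.01, 11.03 and 11.08 in the radiation tumors and 11.10, 11.25 and 11.06 in the 1D11_radiation tumors. Its groups overlapped, and 1D11 in irradiated tumors gave 0.10 ± 0.07 (adjusted p = 0.86).

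The core subunits of complex I showed no call. Ndufv2, which carries an iron-sulfur cluster of the NADH-oxidizing module, differed by 0.21 ± 0.07 between radiation and control (adjusted p = 0.136). Ndufs1, the largest subunit of that module, differed by -0.16 ± 0.07 between 1D11_radiation and 1D11 (adjusted p = 0.293), and Ndufs3, of the ubiquinone-reducing module, by -0.11 ± 0.04 between irradiated and unirradiated tumors (adjusted p = 0.126). Ndufs7, which holds the last iron-sulfur cluster before ubiquinone, had an interaction of -0.22 ± 0.09 (adjusted p = 0.627). In that interaction all 6 core subunits were below 0, with a median of -0.11, beside 21 of the 26 tested accessory subunits, with a median of -0.05.

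Among the remaining accessory subunits, Ndufa3 and Ndufa12 were 0.22 ± 0.08 and 0.14 ± 0.06 for radiation against control (adjusted p = 0.172 and 0.266), and Ndufa3 passed without control 1, at 0.30 (adjusted p = 0.0497). Ndufb3 was -0.14 ± 0.06 for 1D11_radiation against 1D11 (adjusted p = 0.32), and Ndufa2 0.16 for 1D11 against control (adjusted p = 0.326). Ndufb4 was not tested, its probe set lying below the filter at a mean of 4.13.

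Complex II showed no call in its 4 genes. Sdha, the flavoprotein that oxidizes succinate, measured 11.80, 11.72 and 11.76 in the control tumors, 11.85, 11.84 and 11.85 in the 1D11 tumors, 11.58, 11.80 and 11.77 in the radiation tumors and 11.75, 11.70 and 11.74 in the 1D11_radiation tumors. The 3 1D11 tumors were the highest, 1D11_radiation lay below 1D11 by -0.11 ± 0.07 (adjusted p = 0.443), and radiation 1 was the lowest tumor. Sdhb, the iron-sulfur subunit, measured 11.69, 11.39 and 11.40 in the control tumors, 11.49, 11.60 and 11.48 in the 1D11 tumors, 11.40, 11.46 and 11.52 in the radiation tumors and 11.40, 11.33 and 11.42 in the 1D11_radiation tumors. Control 1 was the highest tumor, and the difference of 1D11_radiation from 1D11 was -0.14 ± 0.08 (adjusted p = 0.473).

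Sdhc and Sdhd are the membrane anchors that hold the ubiquinone site. Sdhc measured 10.80, 10.81 and 10.72 in the control tumors, 10.80, 10.83 and 11.01 in the 1D11 tumors, 10.78, 10.67 and 10.53 in the radiation tumors and 10.69, 10.83 and 10.86 in the 1D11_radiation tumors. 1D11 3 was highest and radiation 3 lowest, and 1D11 differed by 0.14 ± 0.08 in irradiated tumors (adjusted p = 0.84). Sdhd measured 11.41, 11.26 and 11.23 in the control tumors, 11.30, 11.31 and 11.37 in the 1D11 tumors, 11.28, 11.32 and 11.23 in the radiation tumors and 11.36, 11.34 and 11.39 in the 1D11_radiation tumors. The 3 1D11_radiation tumors lay above the 3 radiation tumors, by 0.08 ± 0.06 (adjusted p = 0.864). With the probe sets used, all 4 genes were higher in 1D11 than in control tumors, with changes from 0.03 to 0.10. All 4 were lower in radiation than in control tumors, with changes from -0.12 to -0.02. The dimmer probe sets of Sdhc and Sdhd went the other way for 1D11 against control, at -0.09 and -0.27. They gave -0.07 and -0.20 for radiation against control. The dimmer sets of Sdha gave 0.03, 0.005 and 0.06 for 1D11 and -0.15, 0.14 and -0.02 for radiation.

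Complex III also showed no call, with 4 of 8 members higher in radiation against control and 1 of 8 in 1D11_radiation against 1D11. The latter was Uqcrc2, a core protein of the matrix side, which measured 11.63, 11.46 and 11.48 in the control tumors, 11.47, 11.52 and 11.54 in the 1D11 tumors, 11.69, 11.78 and 11.49 in the radiation tumors and 11.67, 11.74 and 11.68 in the 1D11_radiation tumors. Control 1, at 11.63, was the highest unirradiated tumor and radiation 3, at 11.49, the lowest irradiated one, so irradiated and unirradiated tumors overlapped. Its radiation effect was 0.19 ± 0.08 under 1D11 (adjusted p = 0.299) and 0.16 ± 0.06 over all 12 tumors (adjusted p = 0.114). It was called in the latter without radiation 3, at 0.20 (adjusted p = 0.0312).

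Uqcrh, the hinge protein beside cytochrome c1, measured 12.57, 12.46 and 12.49 in the control tumors, 12.59, 12.61 and 12.50 in the 1D11 tumors, 12.40, 12.54 and 12.49 in the radiation tumors and 12.44, 12.44 and 12.40 in the 1D11_radiation tumors. All 3 1D11_radiation tumors lay below the 1D11 tumors, by -0.14 ± 0.06 (adjusted p = 0.32). Uqcrb, a subunit that helps to form the ubiquinone site, measured 13.74, 13.80 and 13.62 in the control tumors, 13.79, 13.89 and 13.82 in the 1D11 tumors, 13.60, 13.69 and 13.78 in the radiation tumors and 13.67, 13.73 and 13.71 in the 1D11_radiation tumors. The same groups did not overlap, with a difference of -0.13 ± 0.07 (adjusted p = 0.401). The other probe set of Uqcrb, at a mean of 11.15, gave -0.05 there. It gave -0.06 for 1D11 against control, where the set used gave 0.11.

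Uqcr11, a small accessory subunit, measured 11.52, 11.26 and 11.36 in the control tumors, 11.61, 11.55 and 11.49 in the 1D11 tumors, 11.47, 11.52 and 11.49 in the radiation tumors and 11.46, 11.35 and 11.43 in the 1D11_radiation tumors. It was 0.17 ± 0.07 for 1D11 against control (adjusted p = 0.328). Its interaction was -0.26 ± 0.10 (adjusted p = 0.616), the lowest of complex III. The Rieske iron-sulfur protein Uqcrfs1 differed by -0.09 ± 0.05 between 1D11_radiation and 1D11 (adjusted p = 0.451). Uqcr10, with 0.14 ± 0.10 for radiation against control (adjusted p = 0.494), was called there when its 3 probe sets were averaged, at 0.33 (adjusted p = 0.0291), its dimmer sets giving 0.54 and 0.31.

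Complex IV held the isoform pairs, and none of its 18 tested members was called. In radiation against control 11 were higher and 7 lower, with a median of 0.01, and in 1D11_radiation against 1D11 6 were higher and 12 lower, with a median of -0.06. Levels of different probe sets are not set against each other here, so isoforms are compared only in how they varied.

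Cox4i1, the ubiquitous isoform of the subunit that carries allosteric control by ATP, measured 13.25, 13.22 and 13.22 in the control tumors, 13.35, 13.33 and 13.27 in the 1D11 tumors, 13.22, 13.25 and 13.24 in the radiation tumors and 13.20, 13.24 and 13.22 in the 1D11_radiation tumors. All 12 tumors lay between 13.20 and 13.35, and 1D11_radiation lay below 1D11 by -0.10 ± 0.05 (adjusted p = 0.383). Cox4i2, the isoform found in lung and induced at low oxygen in some cells, measured 6.68, 6.61 and 6.63 in the control tumors, 6.40, 6.62 and 6.29 in the 1D11 tumors, 6.36, 6.66 and 6.44 in the radiation tumors and 6.48, 6.59 and 6.76 in the 1D11_radiation tumors. Its groups overlapped and no comparison was called; 1D11 against control gave -0.20 ± 0.11 (adjusted p = 0.42) and the interaction 0.33 ± 0.15 (adjusted p = 0.681).

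Cox6a1, the ubiquitous isoform of a regulatory subunit, whose promoter is printed above, measured 14.04, 13.89 and 13.81 in the control tumors, 13.98, 13.91 and 13.91 in the 1D11 tumors, 13.82, 13.88 and 13.91 in the radiation tumors and 13.87, 13.81 and 13.83 in the 1D11_radiation tumors. Control 1 was highest, and the 95% interval of its change with radiation against control was -0.20 to 0.11. Cox6a2, the isoform of heart and skeletal muscle, measured 8.29, 6.89 and 6.85 in the control tumors, 7.001, 7.04 and 6.99 in the 1D11 tumors, 6.93, 7.48 and 9.02 in the radiation tumors and 6.63, 7.17 and 6.83 in the 1D11_radiation tumors. Radiation 3 and control 1 stood above all other tumors, and these were the same 2 tumors that were highest in skeletal muscle genes. Cox6a2 differed by 0.46 ± 0.48 between radiation and control (95% interval -0.60 to 1.52), and by -0.14 when radiation 3 was left out. It differed by -0.93 ± 0.48 between 1D11_radiation and radiation, and by -0.33 without radiation 3.

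Cox7a1 and Cox8b are further isoforms of striated muscle, and both are also known from brown fat. Cox7a1 measured 6.36, 5.59 and 5.24 in the control tumors, 5.53, 5.94 and 5.88 in the 1D11 tumors, 5.51, 5.61 and 6.16 in the radiation tumors and 5.497, 5.66 and 5.14 in the 1D11_radiation tumors. Control 1 and radiation 3 were highest again, and radiation against control gave 0.03 ± 0.27 (95% interval -0.56 to 0.61), 0.34 without control 1 and -0.17 without radiation 3. Cox8b measured 7.29, 6.27 and 6.15 in the control tumors, 5.92, 6.36 and 6.61 in the 1D11 tumors, 6.55, 7.02 and 7.84 in the radiation tumors and 5.89, 7.54 and 6.20 in the 1D11_radiation tumors. Radiation 3, 1D11_radiation 2 and control 1 were the 3 highest tumors, and radiation against control gave 0.57 ± 0.45 (95% interval -0.43 to 1.57), 0.93 without control 1 and 0.22 without radiation 3.

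The skeletal muscle genes moved with these isoforms. The muscle myosin and actin genes Myh4 and Acta1 measured 11.78 and 13.12 in radiation 3 and 10.21 and 12.79 in control 1, and the oxygen-binding protein gene Mb measured 9.18 and 7.93 there. All 17 tested muscle genes were higher in radiation than in control tumors, with a median of 1.09, and none was called. Their mean scores ran from -1.10 to 1.17 in the control, -0.27 to 0.22 in the 1D11, -0.13 to 1.96 in the radiation and -1.29 to 0.41 in the 1D11_radiation tumors, and no muscle marker with a probe set other than Cacna1s lay below the filter. The brown fat markers Ucp1, Cidea, Elovl3, Slc27a2 and Otop1 lay below it, and Dio2 was the 1 of 6 that was tested. The part of muscle RNA in the isoform values was not tested.

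**Figure D3:**
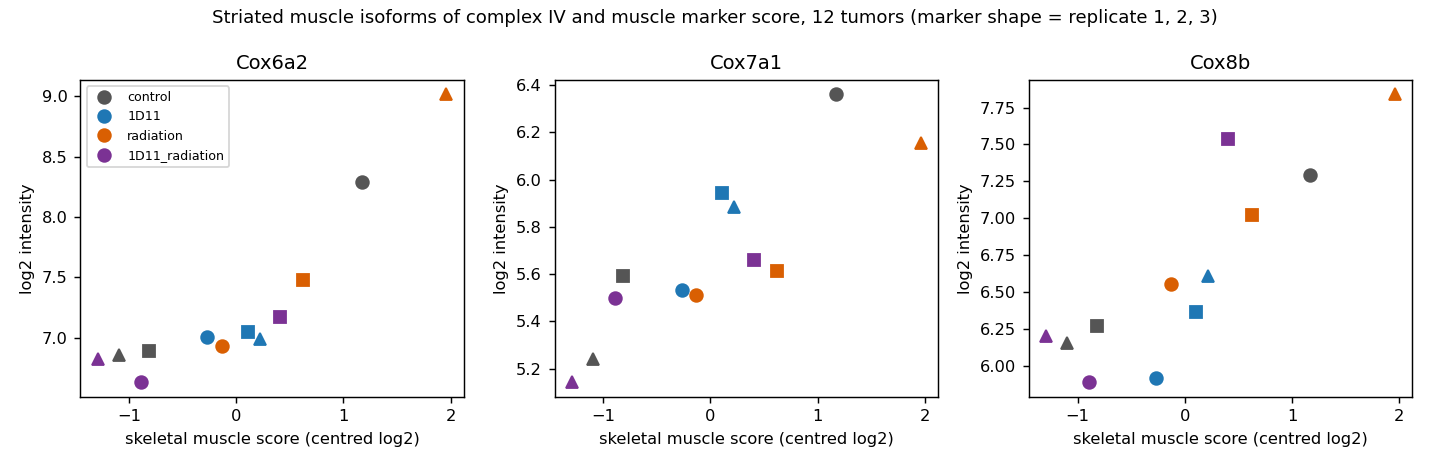
Log2 intensity (y axis) of Cox6a2, Cox7a1 and Cox8b against the skeletal muscle score (x axis, mean centred log2 of 17 genes) in each of the 12 tumors, coloured by group with marker shape for the replicate number. Radiation 3 (score 1.96) and control 1 (score 1.17) lie at the right and are the highest tumors for Cox6a2, at 9.02 and 8.29, and for Cox7a1, at 6.16 and 6.36.

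Cox7a2, the ubiquitous partner of Cox7a1, measured 13.21, 13.17 and 13.05 in the control tumors, 13.21, 13.21 and 13.20 in the 1D11 tumors, 13.15, 13.10 and 13.17 in the radiation tumors and 13.15, 13.16 and 13.16 in the 1D11_radiation tumors. All 12 tumors lay between 13.05 and 13.21, and the 95% interval for radiation against control was -0.14 to 0.12. Cox7a2l, a related protein, measured 12.15, 12.33 and 12.46 in the control tumors, 12.33, 12.43 and 12.29 in the 1D11 tumors, 11.98, 12.17 and 12.15 in the radiation tumors and 12.15, 12.11 and 12.17 in the 1D11_radiation tumors. Irradiated tumors lay between 11.98 and 12.17 and 1D11 tumors between 12.29 and 12.43, with control 1 among the irradiated ones.

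The radiation effect on Cox7a2l was -0.21 ± 0.09 under 13C4 (adjusted p = 0.211), -0.20 ± 0.09 under 1D11 (adjusted p = 0.281) and -0.21 ± 0.06 over 6 against 6 tumors (adjusted p = 0.0599). The other probe sets gave -0.15 and -0.18 under 13C4 and -0.24 and -0.20 under 1D11. Over 6 against 6 tumors it passed the threshold without control 1, at -0.25 (adjusted p = 0.0211).

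Cox8a, the ubiquitous counterpart of Cox8b, measured 12.14, 12.06 and 11.98 in the control tumors, 12.12, 12.16 and 12.08 in the 1D11 tumors, 11.99, 12.02 and 12.10 in the radiation tumors and 12.09, 12.03 and 12.07 in the 1D11_radiation tumors. The 95% interval for radiation against control was -0.16 to 0.11, and no group stood apart. Cox8c, the testis isoform, measured 7.92, 8.05 and 8.04 in the control tumors, 7.78, 7.88 and 7.76 in the 1D11 tumors, 7.89, 7.83 and 8.15 in the radiation tumors and 7.90, 7.75 and 7.96 in the 1D11_radiation tumors. The 3 1D11 tumors lay below the controls by -0.20 ± 0.09 (adjusted p = 0.362).

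Cox6b1, the ubiquitous isoform of a subunit on the intermembrane side, measured 12.996, 12.84 and 12.83 in the control tumors, 12.96, 12.95 and 12.96 in the 1D11 tumors, 12.94, 12.92 and 13.13 in the radiation tumors and 12.91, 12.89 and 12.90 in the 1D11_radiation tumors. Radiation 3 was the highest tumor, and radiation against control gave 0.11 ± 0.07 (adjusted p = 0.45). Cox6b2, its testis isoform, measured 5.58, 5.51 and 5.55 in the control tumors, 5.34, 5.27 and 5.51 in the 1D11 tumors, 5.49, 5.80 and 5.69 in the radiation tumors and 5.42, 5.73 and 5.60 in the 1D11_radiation tumors. It was lower in the 1D11 than in the control tumors by -0.18 ± 0.10 (adjusted p = 0.456), and 1D11_radiation against 1D11 gave 0.21 ± 0.10 (adjusted p = 0.344). Cox7b2, another testis isoform, lay between 3.56 and 3.98 in all tumors, below the filter, and was not tested.

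Ndufa4, once placed in complex I and now known as a complex IV subunit, measured 12.48, 11.92 and 12.04 in the control tumors, 12.38, 12.34 and 12.26 in the 1D11 tumors, 12.28, 12.31 and 12.28 in the radiation tumors and 12.30, 12.20 and 12.24 in the 1D11_radiation tumors. Control 1 was the highest and control 2 the lowest tumor of all, and radiation against control gave 0.15 ± 0.12 (adjusted p = 0.535). Without control 1 the change was 0.32 (adjusted p = 0.0387), past the threshold. Ndufa4l2, a related protein induced at low oxygen, measured 6.84, 6.91 and 6.90 in the control tumors, 6.82, 6.80 and 6.68 in the 1D11 tumors, 6.86, 6.83 and 7.05 in the radiation tumors and 6.75, 6.76 and 6.61 in the 1D11_radiation tumors. All 6 tumors with 1D11 lay below all 6 with 13C4, by -0.16 ± 0.05 (adjusted p = 0.303). In irradiated tumors the 1D11 effect was -0.21 ± 0.08 (adjusted p = 0.84), and without radiation it was -0.12 ± 0.08 (adjusted p = 0.515). The 4 members without named isoforms, Cox5a, Cox5b, Cox6c and Cox7c, gave no call either.

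Complex V had 17 tested members and no call. In radiation against control 12 were higher and 5 lower, with a median of 0.03, in 1D11_radiation against 1D11 7 were higher, with a median of -0.01, and in 1D11 against control 14 were higher, with a median of 0.05. Atp5a1 and Atp5b, of the catalytic head, differed by 0.05 ± 0.06 and -0.01 ± 0.06 between radiation and control.

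Atp5g1, Atp5g2 and Atp5g3 encode the same mature c subunit of the membrane rotor with different import sequences. Atp5g1 measured 11.51, 11.21 and 11.16 in the control tumors, 11.34, 11.28 and 11.38 in the 1D11 tumors, 11.37, 11.36 and 11.28 in the radiation tumors and 11.36, 11.28 and 11.34 in the 1D11_radiation tumors. Control 1 was highest and control 3 lowest, and radiation against control gave 0.04 ± 0.09. Atp5g2 measured 12.17, 12.14 and 12.16 in the control tumors, 12.17, 12.27 and 12.23 in the 1D11 tumors, 12.25, 12.19 and 12.39 in the radiation tumors and 12.21, 12.32 and 12.28 in the 1D11_radiation tumors. The 3 radiation tumors lay above the 3 controls, by 0.12 ± 0.07 (adjusted p = 0.357). Atp5g3 measured 13.55, 13.38 and 13.44 in the control tumors, 13.55, 13.46 and 13.49 in the 1D11 tumors, 13.54, 13.43 and 13.40 in the radiation tumors and 13.48, 13.53 and 13.54 in the 1D11_radiation tumors. The groups overlapped, and the 95% interval for radiation against control was -0.14 to 0.14.

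Atp5d and Atp5e form part of the central stalk. Atp5d measured 12.75, 12.83 and 12.90 in the control tumors, 13.01, 13.03 and 12.95 in the 1D11 tumors, 12.87, 12.95 and 13.02 in the radiation tumors and 13.05, 12.86 and 12.85 in the 1D11_radiation tumors. The 3 1D11 tumors lay above the controls, by 0.17 ± 0.07 (adjusted p = 0.337), and the interaction of -0.20 ± 0.11 did not pass (adjusted p = 0.744). Atp5e measured 12.25, 11.94 and 11.97 in the control tumors, 12.19, 12.14 and 12.07 in the 1D11 tumors, 11.98, 11.98 and 12.13 in the radiation tumors and 11.98, 11.94 and 11.96 in the 1D11_radiation tumors. The 1D11_radiation tumors lay below the 1D11 tumors, by -0.17 ± 0.09 (adjusted p = 0.363), and control 1 was the highest tumor.

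Atp5k, Atp5l and Atp5mpl are small membrane subunits near the dimer interface. Atp5k measured 12.09, 11.88 and 11.82 in the control tumors, 12.12, 11.95 and 11.98 in the 1D11 tumors, 11.97, 12.01 and 12.08 in the radiation tumors and 11.95, 11.93 and 11.96 in the 1D11_radiation tumors. The 1D11_radiation tumors lay below the radiation tumors, by -0.07 ± 0.08 (adjusted p = 0.894). Atp5l measured 12.39, 12.33 and 12.39 in the control tumors, 12.55, 12.41 and 12.47 in the 1D11 tumors, 12.47, 12.46 and 12.49 in the radiation tumors and 12.42, 12.53 and 12.52 in the 1D11_radiation tumors. The controls were lowest, and the changes were 0.10 ± 0.06 with radiation (adjusted p = 0.401) and 0.11 ± 0.06 with 1D11 (adjusted p = 0.452) against those same controls. Atp5mpl measured 12.17, 12.12 and 12.01 in the control tumors, 12.14, 12.12 and 12.10 in the 1D11 tumors, 11.97, 11.97 and 12.20 in the radiation tumors and 12.002, 11.90 and 11.95 in the 1D11_radiation tumors. The 1D11_radiation tumors lay below the 1D11 tumors, by -0.17 ± 0.08 (adjusted p = 0.315).

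The subunits varied little as a group. Over the 12 tumors the median standard deviation was 0.087 log2 units for the 79 tested subunits, against 0.14 over all genes, whose median level was lower (8.63, against 11.9). Without the 3 muscle isoforms the largest standard deviation was 0.191. The extremes fell on few tumors: control 1 was the highest tumor for 26 of the 79 subunits, and radiation 3 for 16. Control 3 was the lowest tumor for 28 and control 2 for 12. A score of the 76 subunits other than the muscle isoforms was 0.07, -0.04 and -0.08 in control 1, 2 and 3. It was 0.03, 0.03 and 0.01 in the 1D11 tumors, -0.01, 0.00 and 0.03 in the radiation tumors, and -0.01 in each 1D11_radiation tumor. The controls thus spanned the range of all 12 tumors.

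All 5 complexes, complex IV without the muscle isoforms, ranked control 1 above control 2 and control 2 above control 3. These ranks come from the same arrays and are not separate observations. The arrays were not rescaled, and their sorted log2 values differed by up to 0.129, about as much as these scores. Control 1 had the highest score of the 12 tumors for complexes I, III, IV and V, at 0.08, 0.06, 0.06 and 0.07. Radiation 3 was also at 0.06 for complex IV. Control 3 had the lowest of the 12 for complexes I, III and V, at -0.11, -0.10 and -0.08. For complex II the highest scores were 0.10 in 1D11 3 and 0.09 in control 1, and the lowest was radiation 1 at -0.07. Genes of hypoxia and glycolysis were lowest in control 1 (score -0.41) and in the 1D11 tumors (-0.37, -0.30 and -0.25), and lay between 0.05 and 0.30 in the other 8 tumors. The 4 tumors with the lowest hypoxia score were among the 5 with the highest score of the 76 subunits. The other end did not mirror this. The lowest subunit scores, -0.08 in control 3 and -0.04 in control 2, went with hypoxia scores of 0.09 and 0.15. The highest hypoxia score, 0.30 in 1D11_radiation 3, went with a subunit score of -0.01. The part of the hypoxia and glycolysis genes in the subunit values was not tested.

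**Figure D4:**
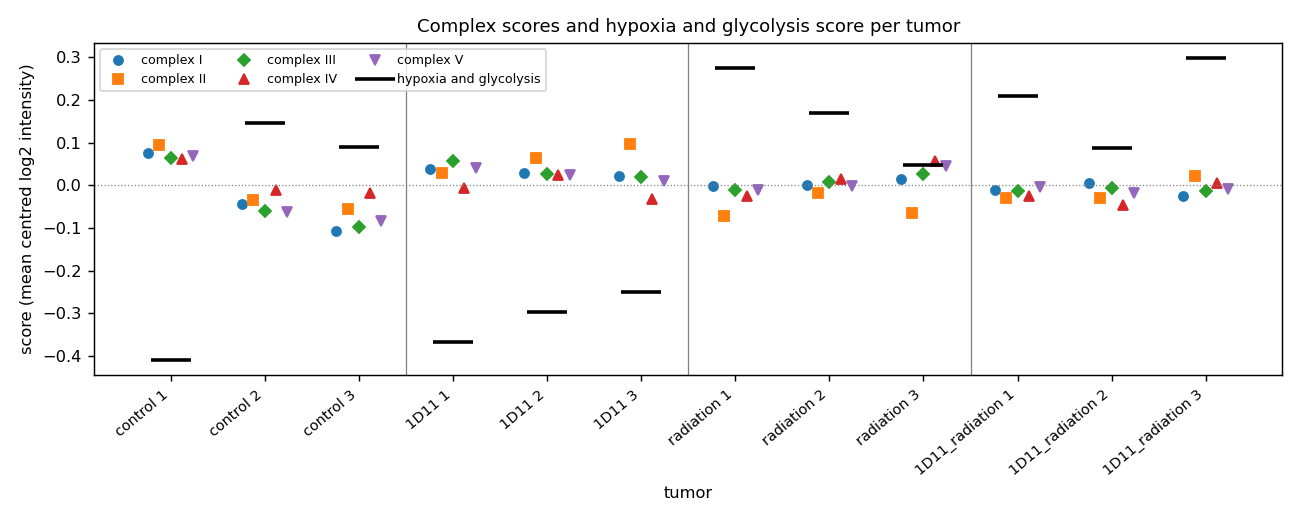
Score of each complex (symbols, mean centred log2 intensity of its tested genes, complex IV without the 3 muscle isoforms) and of the 22 hypoxia and glycolysis genes (black bars) in each of the 12 tumors (x axis). The complex scores stay between -0.11 and 0.10, whereas the hypoxia score runs from -0.41 in control 1 to 0.30 in 1D11_radiation 3.

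Of the 22 hypoxia and glycolysis genes, 8 rose over the 6 irradiated against the 6 unirradiated tumors, where 7.26% of all genes tested were called, and the median of all 22 was 0.29. They were the angiogenic factor gene Vegfa at 0.62 ± 0.16 (adjusted p = 0.0446), the lactate dehydrogenase gene Ldha at 0.18 ± 0.04 (adjusted p = 0.026) and the mitophagy receptor gene Bnip3 at 0.65 ± 0.16 (adjusted p = 0.0383), with Pgk1, Hk2, Pkm, Adm and P4ha2. None was called in a comparison of 2 groups of 3. Endothelial genes were lower in the radiation tumors (scores -0.37 to -0.30) than in the controls (-0.08 to 0.53), and macrophage scores were 0.10 to 0.27 against -0.46 to -0.13. Pericyte scores were -0.40 to -0.29 against 0.48 to 0.66. In radiation against control 5 of 10 endothelial and 4 of 7 pericyte genes were called lower. There 3 of 9 macrophage genes were called higher, beside 2.39% of all genes called. The part of these cell types in the subunit values was not tested.

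The assembly factors, which insert cofactors and join subunits but are not kept in the finished complexes, gave no call in the 4 comparisons of 3 against 3. Over 6 against 6 tumors 3 of the 44 tested rose with radiation and 2 fell, beside 7.26% of all genes called. Uqcc3, a complex III assembly factor, measured 8.55, 8.60 and 8.70 in the control tumors, 8.74, 8.73 and 8.83 in the 1D11 tumors, 9.06, 9.04 and 8.98 in the radiation tumors and 8.95, 9.51 and 9.02 in the 1D11_radiation tumors, and rose by 0.40 ± 0.09 (adjusted p = 0.021). Its lowest irradiated tumor, at 8.95, lay above its highest unirradiated tumor, at 8.83. The complex I assembly factors Ndufaf1 and Ndufaf3 rose by 0.30 ± 0.07 and 0.33 ± 0.08 (adjusted p = 0.0329 and 0.0271). Cox15, which makes the heme of complex IV, changed by -0.23 ± 0.06 (adjusted p = 0.0468) and the assembly factor Cox16 by -0.20 ± 0.06 (adjusted p = 0.0479), both lower. The median over the 44 was 0.00 in that comparison, and 0.07 in 1D11 against control, where 38 were higher and none was called.

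Of 12 tested electron carriers and their partners, 2 rose and 2 fell over 6 against 6 tumors, where 7.26% of all genes were called. Higd1a, a hypoxia-inducible protein that binds complex IV, measured 11.07, 11.54 and 11.38 in the control tumors, 10.997, 11.001 and 11.25 in the 1D11 tumors, 11.82, 11.61 and 11.19 in the radiation tumors and 11.68, 11.71 and 11.81 in the 1D11_radiation tumors, and rose by 0.43 ± 0.11 (adjusted p = 0.0398). Control 1 and the 1D11 tumors held 4 of its lowest 5 values, with radiation 3 the remaining one. Ndufab1, the mitochondrial acyl carrier protein that is also a complex I subunit, rose by 0.15 ± 0.04 (adjusted p = 0.0459). Etfdh, which passes electrons from fatty acid oxidation to ubiquinone, changed by -0.29 ± 0.06 (adjusted p = 0.0137), and Higd2a, a complex IV and supercomplex factor, by -0.20 ± 0.05 (adjusted p = 0.0295), both lower. Cytochrome c itself, Cycs, gave -0.10 ± 0.08 for 1D11_radiation against radiation and no call.

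Among 18 tested genes of the citrate cycle and pyruvate dehydrogenase, 1 was called, in radiation against control (2.39% of all genes called) and over 6 against 6 tumors (7.26%). Dlat, the acetyl-transferring subunit of pyruvate dehydrogenase, measured 9.87, 9.91 and 9.80 in the control tumors, 10.03, 9.97 and 9.90 in the 1D11 tumors, 10.18, 10.13 and 10.10 in the radiation tumors and 10.12, 10.06 and 10.08 in the 1D11_radiation tumors, and rose by 0.27 ± 0.06 in radiation against control (adjusted p = 0.0415) and by 0.20 ± 0.04 over 6 against 6 tumors (adjusted p = 0.0204). The lowest irradiated tumor was at 10.06 and the highest unirradiated one at 10.03. Cs, citrate synthase, gave 0.16 ± 0.07 in radiation against control (adjusted p = 0.233). Of 19 tested genes of mitochondrial biogenesis, 1 was called over 6 against 6 tumors, beside the same 7.26% of all genes. Myc, a transcription factor with many growth targets, rose by 0.36 ± 0.07 (adjusted p = 0.0145), and the mitochondrial ribosomal RNA methyltransferase Tfb1m gave -0.15 ± 0.04 (adjusted p = 0.0571). ND5, the 1 mitochondrially encoded subunit measured, lay between 12.09 and 12.56 and was called in no comparison, with 0.13 ± 0.10 for radiation against control (adjusted p = 0.536).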

How the data were processed

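Gene expression was measured in 12 tumors, 3 in each of 4 groups named by the labels. The authors deposited 1 linear intensity for each of 45101 probe sets on each array. How it was background-corrected, normalized and summarized is not given in the sources used here. The deposited intensity was taken to log2 with no further step, because the sorted log2 values differed between arrays by 0.129 or less. Values ran from 7.40 to 30800. Background per array is not known, and 3 arrays per group limit the precision.

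The platform table gave 1 symbol for 34945 probe sets, several for 932 and none for 9160; 64 control probe sets were left out. Members on probe sets with several symbols were not used here. Genes in the lowest 30 percent of means (log2 under 5.37) were not tested, which left 12735. R 4.3.3 and limma 3.58.1 fitted 1 mean per group over all arrays (8 residual, 3.11 prior degrees of freedom), with two-sided moderated tests and Benjamini-Hochberg adjustment over all genes tested; a gene was called at an adjusted p under 0.05. The fit was tested on simulated data. Errors are standard errors of that model.

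Values per tumor are given for called members, for fixed isoform members and for up to 2 members per complex and comparison with the smallest p. From the other lists, called genes or the 2 with the smallest p are named. The members and lists were chosen with earlier results of these data known. Alternatives were the mean of probe sets, no filter, quantile normalization, an offset of 16, array weights, trend and robust moderation, only the groups compared, the replicate block, each array left out, and control 1 and radiation 3 left out together. Replicate numbers were not taken to pair the tumors, and the labels name no pairing. Of 18 same-number pairs, 3 correlated above 0.1 (range -0.308 to 0.272). Pairs with different numbers were not set beside them, so this cannot show that no pairing or batch exists.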

Additional observations from a re-analysis of the deposited data

How the results depend on the processing

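The number of subunits called in radiation against control was 1, and it was 2 with the mean of probe sets (Ndufc2 and Uqcr10), 3 with array weights (Ndufc2, Ndufs4 and Ndufa3), 0 with only the 2 groups in the model, and 2 without control 1 and radiation 3 together (Ndufc2 and Ndufa4). Leaving out 1 tumor in turn gave 0 to 3: 0 without radiation 1 or radiation 2, and 3 without control 1. In 1D11_radiation against 1D11 the count of 0 became 1 (Ndufc2) with array weights, with trend and robust moderation, and without control 1 and radiation 3; leaving out 1 tumor gave 0 to 1, with 1 without control 1. Over 6 irradiated against 6 unirradiated tumors the count of 1 became 4 with the mean of probe sets, 2 with quantile normalization, 4 with array weights, 2 with trend and robust moderation and 3 without both tumors; leaving out 1 tumor gave 1 to 2, with 2 without control 1, control 3 or radiation 3. The members added were Cox7a2l, Uqcrc2, Uqcr10, Atp5c1, Ndufs4 and Ndufb2. The counts of the 1D11 comparisons and of the interaction were 0 in every alternative run. With the replicate block, Ndufc2 was the 1 call in radiation against control (adjusted p = 0.0377) and over 6 against 6 tumors (adjusted p = 0.0112), as without it. Array weights ran from 0.297 for control 1 to 3.27 for 1D11_radiation 3. The cause of these shifts was not tested. Array background is not known, so how far dim members such as Cox6b2 stand above it cannot be given.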
